A study of Rattus norvegicus with 141 samples.

Results

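Ribosome assembly and nucleolar genes are described here in the liver, stomach and duodenum of rats given microplastics. The 42 genes were taken by symbol from the gene count table of each tissue, each table holding 30562 genes. All 42 were found in all 3 tables and all passed the filter on low counts, which left 13130 genes tested in liver, 15140 in stomach and 15189 in duodenum. They divide by role into 3 genes of RNA polymerase I, 3 of the box C/D particle, 4 of the box H/ACA particle, 3 nucleolar acidic proteins, 3 of the PeBoW complex, 12 factors of the small subunit and 14 of the large subunit.

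The animals, male and female, were adult Sprague-Dawley rats of wild-type genotype kept on standard chow and given the vehicle (control), 5 mg/kg microplastics (low dose) or 50 mg/kg microplastics (high dose). RNA-seq of polyadenylated RNA gave 141 libraries in 18 groups of tissue, sex and dose. Each group held 8 libraries, except 6 of high-dose female liver and 7 of control female duodenum. Liver thus had 16 control, 16 low-dose and 14 high-dose libraries, stomach had 16 of each, and duodenum had 15, 16 and 16. Pieces of frozen tissue were pulverized together and the mass taken varied. The composition of the vehicle, the route of dosing, and whether a rat gave more than 1 tissue are not stated in the labels used here, nor do the labels say that the libraries of a group came from separate rats, so p-values here reflect library-to-library spread, which may be technical.

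A ribosome is built in the nucleolus, where RNA polymerase I transcribes the ribosomal RNA precursor. Guide RNA particles of the box C/D and box H/ACA kinds direct methylation and pseudouridylation of this precursor, and large sets of assembly factors fold it, cut it and load ribosomal proteins to form the small and large subunits. Cells that grow and divide, such as those of the intestinal crypt, make many ribosomes, and MYC is a known activator of many of these genes.

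Totals ran from 4947820 to 25503800 counts per library, and libraries carried a batch number from 1 to 3 that entered every test as a term. Of the marker lists, the hepatocyte list made up 8.32 to 15.6% of the counts of every liver library, so the labelled tissue held its defining markers. Stomach libraries held parietal cell markers (control median 0.945%) and chief cell markers (9.90%), and duodenum libraries enterocyte markers (1.01%). Duodenum libraries varied in pancreatic acinar markers, which exceeded 0.1% of counts in 18 of 47 libraries (6 of 15 control, 8 of 16 low-dose and 4 of 16 high-dose) and reached 5.31%. In pieces of tissue, more cells of a type and more RNA per cell cannot be told apart.

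At the high dose, the clearest differences were in duodenum, where 16 of the 42 genes were higher than in controls and none was lower (edgeR quasi-likelihood test, adjusted p under 0.05 over all genes tested). Those 16 are 38.1% of the members, against 8.76% of all duodenum genes called higher and 7.58% called lower (16.3% either way). In stomach 3 of the 42 were higher and none was lower (7.14%), against 2.65% of all genes higher and 1.84% lower (4.49% either way). All 3 stomach genes, Nsa2, Npm1 and Nip7, were among the 16 of duodenum. In liver no member was called, as was no other gene (0%). Changes were small: the called members ranged from 0.18 to 0.44 on the log2 scale in duodenum and from 0.27 to 0.40 in stomach.

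**Figure D1:**
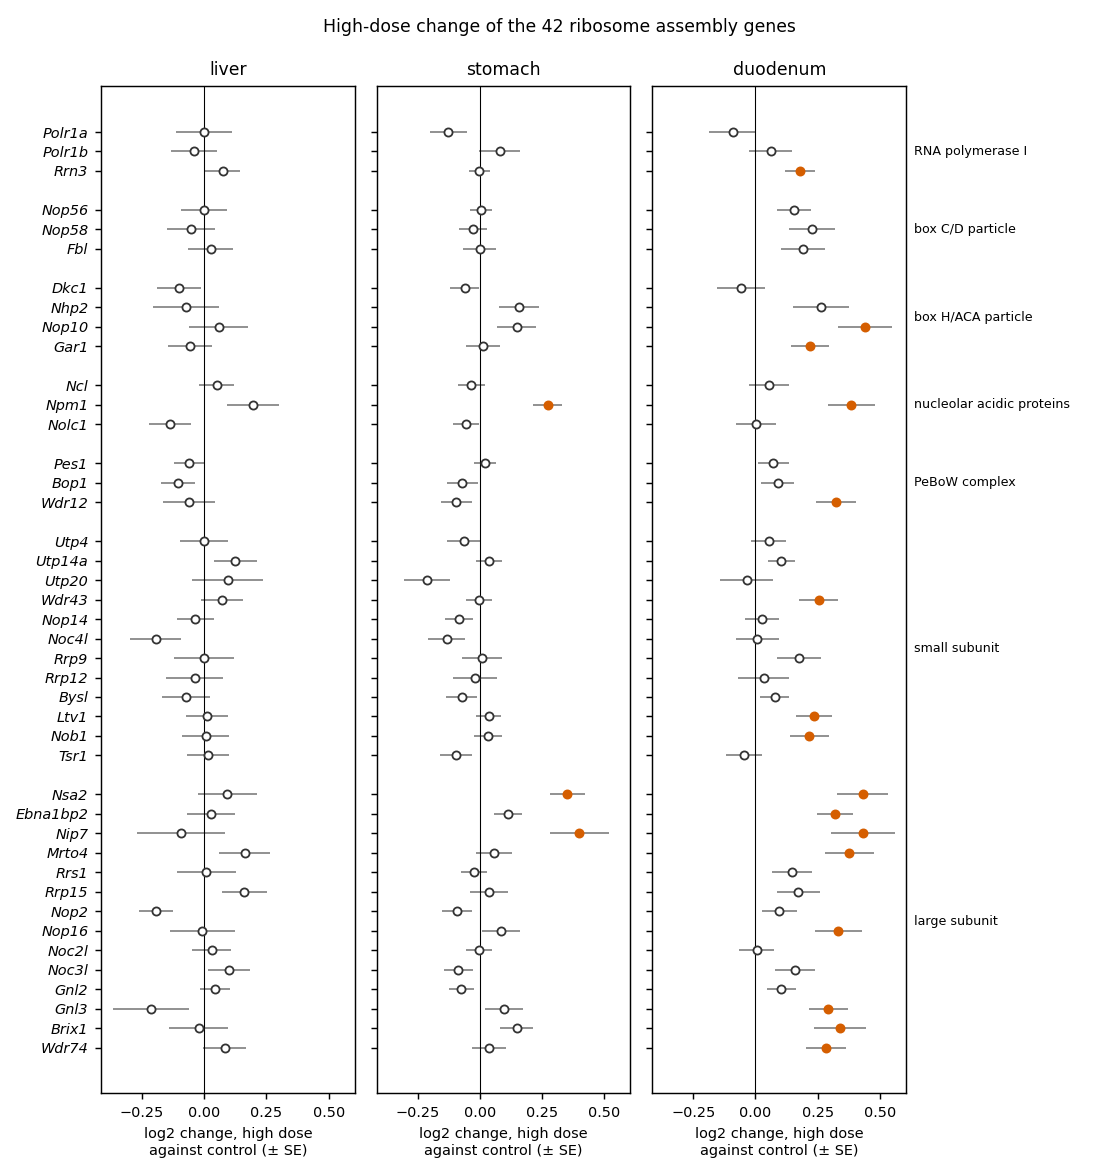
Log2 change at 50 mg/kg against control for each of the 42 genes (rows, grouped by role) in liver, stomach and duodenum (columns), with bars of 1 standard error from the edgeR fit and filled points for genes with an adjusted p under 0.05. In duodenum 38 of 42 points lie above 0, while 20 of 42 do in stomach and in liver.

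The 3 members higher in both stomach and duodenum were Nsa2 (ENSRNOG00000016530), a factor of the nuclear pre-60S particle, Nip7 (ENSRNOG00000020391), which binds the precursor of the large subunit, and Npm1 (nucleophosmin, ENSRNOG00000004616), the abundant acidic protein of the outer nucleolus. The 100 bases before the start of each of these genes, from RefSeq on GRCr8, are shown because these genes passed in both tissues. They lie at chr2:30184005-30184104 (minus strand), chr10:18255742-18255841 (minus strand) and chr19:51872206-51872305 (plus strand) and are printed in the direction of transcription, in lower case throughout.
Nsa2: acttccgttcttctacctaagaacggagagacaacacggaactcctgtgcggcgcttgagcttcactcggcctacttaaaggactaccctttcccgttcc
Npm1: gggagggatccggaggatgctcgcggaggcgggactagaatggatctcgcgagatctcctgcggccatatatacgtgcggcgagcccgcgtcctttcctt
Nip7: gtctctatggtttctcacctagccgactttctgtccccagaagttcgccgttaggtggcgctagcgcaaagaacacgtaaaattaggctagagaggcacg

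Levels are given as CPM, a library-scaled count with TMM library sizes, which are not per length, so they are compared for 1 gene across groups and not between genes. In duodenum Nsa2 ran from 55.6 CPM through a median of 87.2 to 121 in controls, from 35.5 through 98.8 to 129 at the low dose, and from 72.6 through 117 to 221 at the high dose. The high-dose libraries reached well above the control range, yet the 3 groups overlapped. The change at the high dose was 0.43 ± 0.10 (log2 ± SE, edgeR adjusted p = 0.0105), and it was 0.22 within batch 1 and 0.55 within batch 2. In stomach Nsa2 ran from 56.9 through 66.9 to 108 CPM in controls, from 57.7 through 72.5 to 115 at the low dose, and from 55 through 82.2 to 137 at the high dose. The medians stood in the order of dose, with wide overlap. The high-dose change in stomach was 0.35 ± 0.071 (edgeR adjusted p = 0.0203).

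Npm1 was also higher in both tissues. Its duodenum level ran from 280 through a median of 523 to 628 CPM in controls and from 418 through 644 to 944 at the high dose, with a change of 0.38 ± 0.093 (edgeR adjusted p = 0.0108). Its stomach level ran from 215 through 295 to 448 CPM in controls and from 204 through 367 to 504 at the high dose, with a change of 0.27 ± 0.060 (edgeR adjusted p = 0.0216). The high-dose median in duodenum lay above the highest control library, and in stomach it lay within the control range. Processed copies of Npm1 are known, so reads shared with near-identical copies make its count less certain than that of most members.

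Among these 3, Nip7 lost its stomach call most often: it did so in 15 of the fits with 1 library left out, and Nsa2 and Npm1 each in 1. In stomach it ran from 8.79 through 14.0 to 26.1 CPM in controls and from 13.3 through 18.4 to 30.6 at the high dose, a change of 0.40 ± 0.12 (edgeR adjusted p = 0.0437). In duodenum it ran from 15.3 through 22.4 to 40.2 CPM in controls and from 16.2 through 31.7 to 70.6 at the high dose, a change of 0.43 ± 0.13 (edgeR adjusted p = 0.0211). In both tissues the ranges overlapped, and the change was larger within batch 2 (0.66 in stomach, 0.76 in duodenum) than within batch 1 (0.23 and 0.32).

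**Figure D2:**
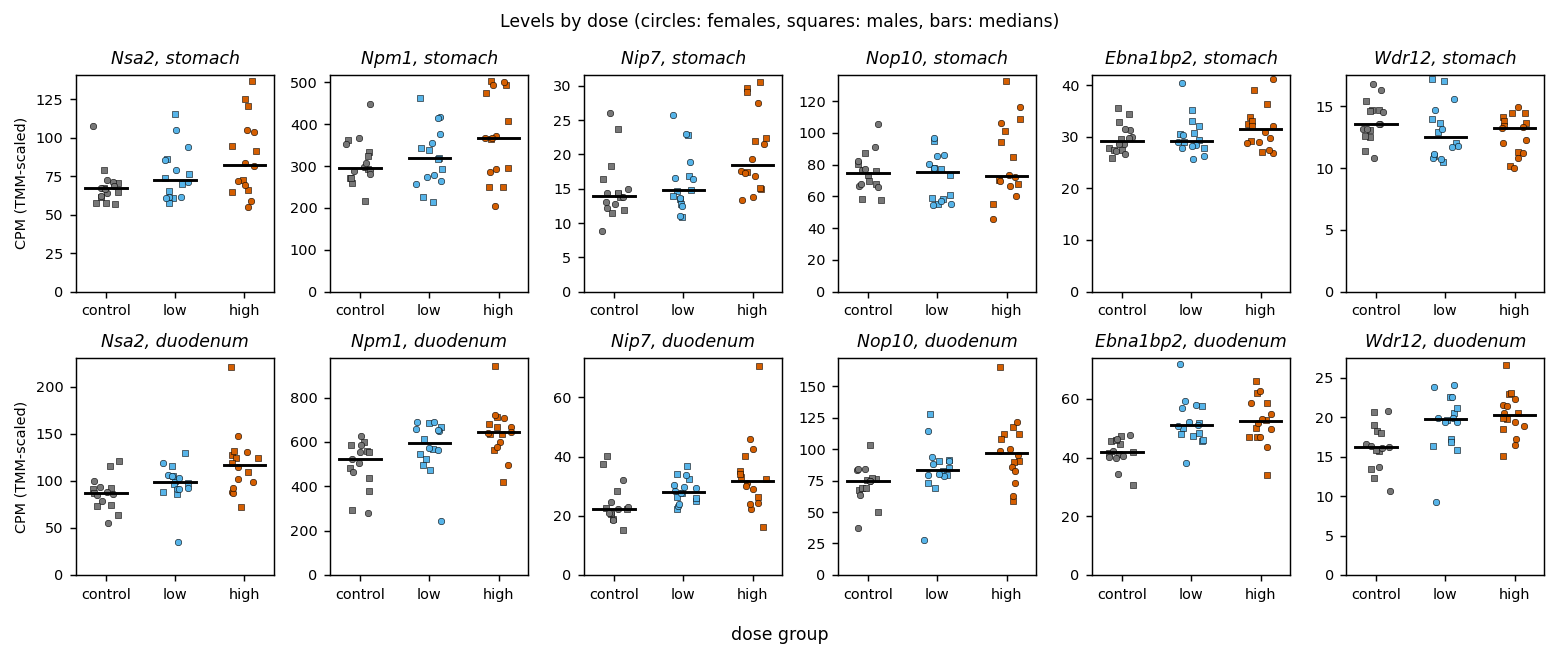
CPM of Nsa2, Npm1, Nip7, Nop10, Ebna1bp2 and Wdr12 (columns) in stomach and duodenum (rows) by dose group; each point is a library (circles female, squares male) and the bar marks the median. The medians of Nsa2 go from 87.2 to 117 CPM in duodenum and from 66.9 to 82.2 CPM in stomach between control and high dose, and the points of the groups overlap.

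Counted by role, 8 of the 16 called duodenum genes were large-subunit factors, of which 14 were measured, with a median change of 0.29. The median over all 42 members was 0.16, against -0.021 over all genes tested. Of the 12 small-subunit factors 3 were higher (median 0.065), of the 4 H/ACA genes 2 were higher (median 0.24), and none of the 3 C/D genes was (median 0.19). RNA polymerase I, the acidic proteins and PeBoW each had 1 gene of 3 higher, with medians of 0.061, 0.055 and 0.089. Whether the roles differ from each other was not tested.

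Among the large-subunit factors, Ebna1bp2, a nucleolar protein of early pre-60S particles, had the smallest p of all members in duodenum. The 100 bases before its start, at chr5:137433434-137433533 on the plus strand of GRCr8 (RefSeq), are shown with capitals marking the letters CCGGAA, which occur more than once.
Ebna1bp2: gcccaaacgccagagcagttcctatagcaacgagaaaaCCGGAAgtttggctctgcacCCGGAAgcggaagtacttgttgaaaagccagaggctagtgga

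Ebna1bp2 ran from 30.8 through a median of 42 to 47.5 CPM in controls, from 38.2 through 51.0 to 71.9 at the low dose, and from 34.0 through 52.3 to 66.1 at the high dose. The low-dose and high-dose medians both lay above the highest control library. The high-dose change was 0.32 ± 0.072 (edgeR adjusted p = 0.0104), with near-equal values of 0.30 and 0.36 within batches 1 and 2. Mrto4, which occupies the stalk position on pre-60S particles, went from a control range of 22.8 to 51.9 CPM (median 39.7) to 30.5 to 74.6 (median 48.2), a change of 0.38 ± 0.097 (edgeR adjusted p = 0.0125).

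The other large-subunit genes called in duodenum were Gnl3 (nucleostemin, a GTP-binding nucleolar protein), Nop16, Wdr74 and Brix1, with changes of 0.29, 0.33, 0.28 and 0.34. Brix1 ran from 13.1 to 27.9 CPM in controls and from 15 to 45.9 at the high dose, with medians of 21.4 and 25.4. Wdr12, the PeBoW subunit that joins Pes1 and Bop1, was higher by 0.32 ± 0.081 (edgeR adjusted p = 0.0121), from 10.7 to 20.8 CPM (median 16.2) in controls to 15.1 to 26.6 (median 20.2) at the high dose. The 3 PeBoW subunits thus did not all pass: the median of the complex was 0.089.

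Among the guide particle genes, Nop10, a core H/ACA protein, had the largest change of all members in duodenum, 0.44 ± 0.11 (edgeR adjusted p = 0.0121). It ran from 37.2 through 74.8 to 103 CPM in controls and from 59.1 through 97 to 165 at the high dose. Gar1, another core H/ACA protein, was higher by 0.22 (edgeR adjusted p = 0.0437). Dkc1, the pseudouridine synthase of the same particle, had a value of -0.057 ± 0.097 (edgeR adjusted p = 0.720). Differences between subunits of the particle were not tested. A Nop10-like copy and an Nhp2 pseudogene have rows of their own in the table, and reads may be split between them and the genes named here.

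The C/D proteins Nop56, Nop58 and Fbl (fibrillarin, the methyltransferase) had values of 0.16, 0.23 and 0.19 in duodenum with edgeR adjusted p of 0.105, 0.0749 and 0.123, none of which passed. Fbl overlapped widely, from 74.3 through 98.3 to 165 CPM in controls and from 69.7 through 122 to 153 at the high dose. Among the small-subunit factors, Ltv1 and Nob1, both of late pre-40S particles (Nob1 is the nuclease that finishes 18S rRNA), rose by 0.23 and 0.22, and Wdr43, of the early particle, rose by 0.25. Rrn3, the factor that brings RNA polymerase I to its promoter, rose by 0.18 (edgeR adjusted p = 0.0403), while Polr1a, the largest subunit of the enzyme, had -0.091 ± 0.094 (edgeR adjusted p = 0.532). The adjusted p of the 10 called duodenum genes after the leading 6 lay between 0.0137 and 0.0491.

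All 16 called duodenum genes had a positive change within batch 1 and within batch 2, as did 37 and 39 of all 42 members. Single libraries set many of the extremes in duodenum. Male high-dose replicate 5, of batch 2, was the highest high-dose library for 15 of 42 members, Nsa2, Npm1, Nip7 and Nop10 among them, and male high-dose replicate 6, of batch 1, was the lowest for 24, the same 4 genes among them. Female low-dose replicate 7, of batch 3, was the lowest low-dose library for 20 members, and male control replicate 1, of batch 2, the lowest control for 20. None of the 42 had high-dose libraries that did not overlap the controls in duodenum or stomach. How many of all genes did was not counted. The duodenum count moved with the model: it was 16 with DESeq2, the same 16 genes, but 0 when 3 surrogate variables or the ribosomal protein share of the library entered the fit, and 0 within batch 1 alone. In each of these 3 settings the count over all duodenum genes also went from 2481 to 0. It was 9 without male high-dose replicate 5, 9 without female control replicate 1 and 20 without male high-dose replicate 6, with the counts over all genes not given here. With the ribosomal protein share as a term, the values of the 6 leading genes lay between 0.038 (Mrto4) and 0.13 (Npm1), with an edgeR adjusted p of 0.999. The stomach count was 0 in the same 3 settings, within batch 2 alone, with no batch term, and without male high-dose replicate 4. With the ribosomal protein share as a term, the stomach values were 0.071 for Nsa2, 0.062 for Npm1 and -0.034 for Nip7 (edgeR adjusted p = 0.582, 0.664 and 0.924). Over all stomach genes, 680 were called at the high dose, against 4 with no batch term, 3 with the ribosomal protein share, 0 with 3 surrogate variables, 2 within batch 1 and 0 within batch 2, so nearly all calls of the tissue were lost along with those of the members.

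In stomach, the members after the 3 called genes were Utp20, a very large small-subunit scaffold protein, at -0.21 ± 0.092 (edgeR adjusted p = 0.153), and Brix1 at 0.15 ± 0.067 (edgeR adjusted p = 0.168). The stomach medians by role were 0.047 for the large subunit, -0.042 for the small subunit and -0.0012 for the C/D particle, and the median over all 42 was -0.0015 against -0.0058 over all genes. In liver, where the median was -0.0004 against 0.0021, the smallest p were those of Nop2, an rRNA methyltransferase (-0.19 ± 0.068), Noc4l (-0.19 ± 0.10) and Npm1 (0.20 ± 0.10), all with an edgeR adjusted p of 1. Nsa2 in liver was at 0.094 ± 0.12. The liver had 1 member and 446 genes at an unadjusted p under 0.05, and DESeq2 called 0 genes.

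At the low dose no member passed in any tissue (edgeR, 0% of genes called in each), but in duodenum all 42 values were positive, where 47% of all genes were. The median over the members was 0.21 against -0.013 over all genes, and 31 members of 2132 genes had an unadjusted p under 0.05. DESeq2 called 1 member, Ebna1bp2, and 18 genes in all. The values ran from 0.069 for Polr1a to 0.32 for Ebna1bp2. Genes transcribed together in a library are not independent, so the number of positive signs carries no test.

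The leading low-dose values in duodenum were Ebna1bp2 at 0.32 ± 0.072, Gar1 at 0.28 ± 0.076 and Wdr43 at 0.29 ± 0.079, each with an edgeR adjusted p of 0.199. Nsa2 was at 0.18 ± 0.10 (edgeR adjusted p = 0.420). The low-dose medians by role were alike, from 0.17 for RNA polymerase I to 0.23 for the H/ACA particle. Both doses were set against the same controls, so the 2 sets of values are not independent. Of the 16 genes called at the high dose, all had a low-dose value above 0.1, and 13 were larger at the high dose than at the low dose. The 16 were picked by their high-dose values, so this order follows in part from the choice. Over all 42 members, high against low dose had a median of -0.053, with 15 values positive and 27 negative.

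With the doses set directly against each other, no member passed in duodenum: edgeR called 0 members and 0% of genes, with 8 members and 1830 genes at an unadjusted p under 0.05, and DESeq2 called 1 gene that was no member. The smallest p belonged to Tsr1, a pre-40S GTPase-like factor (-0.20 ± 0.073, edgeR adjusted p = 0.332), Nsa2 (0.25 ± 0.10, edgeR adjusted p = 0.359) and Noc4l (-0.20 ± 0.085, edgeR adjusted p = 0.368). In stomach 0 members passed against 0.707% of genes (0.614% higher, 0.0925% lower), with 4 members at an unadjusted p under 0.05 and 0 by DESeq2. The leading stomach values were Nip7 at 0.34 ± 0.12 (edgeR adjusted p = 0.141), Npm1 at 0.16 ± 0.060 (0.166) and Nsa2 at 0.16 ± 0.071 (0.247).

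At the low dose in stomach, Nsa2 was at 0.19 ± 0.073 (edgeR adjusted p = 0.749), Nob1 at 0.12 ± 0.056 and Npm1 at 0.11 ± 0.061 (0.806 each). There, 2 members and 909 genes had an unadjusted p under 0.05, and DESeq2 called 28 genes and 0 members. In liver at the low dose, Gnl2, a GTPase of pre-60S export, was at 0.15 ± 0.057, Wdr12 at -0.17 ± 0.099, Mrto4 at 0.12 ± 0.097 and Nsa2 at -0.13 ± 0.11, all with an edgeR adjusted p of 1 to the nearest hundredth. In liver 1 member and 272 genes had an unadjusted p under 0.05, with 0 by DESeq2. The liver's doses set against each other gave 0 members and 0% of genes, 4 members and 609 genes at an unadjusted p under 0.05 and 0 by DESeq2, led by Nop2 (-0.14), Noc4l (-0.21) and Dkc1 (-0.18), with Nsa2 at 0.23 ± 0.12 (edgeR adjusted p = 0.958 for these).

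Within male stomachs 3 members were higher at the high dose and none lower (7.14%), against 4.95% of genes higher and 2.11% lower (7.06% either way). Nsa2 ran from 56.9 through 62.9 to 78.8 CPM in male controls and from 64.5 through 92.9 to 137 at the high dose, a change of 0.57 ± 0.10 (edgeR adjusted p = 0.00316). The median of the high-dose males lay above every control male. Npm1 went from 215 through 283 to 362 CPM to 249 through 387 to 504, a change of 0.39 ± 0.084 (edgeR adjusted p = 0.00727). Nop10 went from 57.4 through 71.6 to 87.0 CPM to 55.4 through 89.6 to 132, a change of 0.34 ± 0.11 (edgeR adjusted p = 0.0498), a call lost in 26 of the fits with 1 library left out. Nip7 did not pass in males (0.49 ± 0.16, edgeR adjusted p = 0.0580).

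In female stomachs no member passed (edgeR, 0% of genes; 0 members and 880 genes at an unadjusted p under 0.05; DESeq2 called 1 gene, no member). Nsa2 ran from 61.9 through 67.9 to 108 CPM in female controls and from 55 through 76.5 to 105 at the high dose, with a value of 0.13 ± 0.10 (edgeR adjusted p = 0.870). The smallest p in females were those of Wdr12 (-0.17 ± 0.087, edgeR adjusted p = 0.848), Nip7 (0.31 ± 0.17) and Polr1b, the other large polymerase subunit (0.21 ± 0.12), the latter pair at 0.850.

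The difference between the sexes was tested itself and no member passed in stomach. The high-dose change in females minus that in males was -0.45 ± 0.14 for Nsa2, -0.38 ± 0.15 for Nop10 and 0.41 ± 0.17 for Rrp12, a pre-40S export factor (edgeR adjusted p = 0.629 for each). There were 6 members and 1187 genes at an unadjusted p under 0.05, and DESeq2 called 0 members. A sex difference in the response of Nsa2 was therefore not shown.

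In duodenum neither sex alone had a called member by edgeR (0% of genes in each). In males 15 members and 3650 genes had an unadjusted p under 0.05 and DESeq2 called 8 members of 1010 genes. The leading values were Nsa2 at 0.48 ± 0.14 (edgeR adjusted p = 0.0747), Nop16 at 0.43 ± 0.13 (0.0749) and Nop10 at 0.48 ± 0.15 (0.0803). In females 15 members and 2048 genes had an unadjusted p under 0.05, DESeq2 called 0 members and 3 genes, and Ebna1bp2 (0.36 ± 0.10), Wdr12 (0.36 ± 0.12), Npm1 (0.38 ± 0.14) and Nsa2 (0.38 ± 0.15) had an edgeR adjusted p of 0.322. The members' median was 0.13 in males and 0.18 in females.

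The sex difference in duodenum was led by Utp20 (0.37 ± 0.22), Tsr1 (0.22 ± 0.15) and Nop14 (0.20 ± 0.14), with Nsa2 at -0.091 ± 0.21, all with an edgeR adjusted p of 1. It had 0 members and 302 genes at an unadjusted p under 0.05 and 0 members by DESeq2. In liver the high-dose males were led by Noc4l (-0.29 ± 0.13), Utp14a (0.22 ± 0.11) and Rrs1 (-0.28 ± 0.16, edgeR adjusted p = 0.924 for all) and the females by Nop2 (-0.24 ± 0.10), Mrto4 (0.30 ± 0.15) and Rrp15 (0.25 ± 0.13, all at 1). The liver had 1 member in males, 2 in females and 1 for the sex difference at an unadjusted p under 0.05, against 639, 200 and 307 genes, with 0 called by either tool.

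The other genes of the pathway were described from fixed lists, without a test of the list. At the high dose in duodenum, 15 of 38 other small-subunit factors were higher (median 0.18), led by Emg1 (0.50), Utp18 (0.44) and Wdr75 (0.27). Of 36 other large-subunit factors 6 were higher (median 0.038), led by Rpf2 (0.43), Rsl24d1 (0.40) and Mak16 (0.31). Of 13 genes of the RNA exosome, which trims the precursor, 6 were higher (median 0.24), with Mphosph6 (0.43), Exosc1 (0.29) and C1d (0.42). Of 12 other polymerase I genes 2 were higher, Polr1c (0.24) and Polr1d (0.31). In the MYC network none of 9 genes was higher and 3 were lower, namely Mxd1 (-0.87), Mxd4 (-0.17) and Max (-0.30). The activity of MYC was not measured, and this count gives no direction for it.

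Ribosomal protein genes, the products that these factors assemble, were higher in larger part. In duodenum 44 of the 57 that could be tested by a single row were higher at the high dose, with a median of 0.43, among them Rpl14 (0.67) and Rpl36a (0.64). In stomach 50 of 57 were higher, with a median of 0.53, among them Rpl28 (0.41), Rpl3 (0.27) and Rps27 (0.53). These calls were lost with the rest of the tissue's: with 3 surrogate variables no gene was called in either tissue, and with no batch term 4 genes were called in all of stomach. The pathway lists moved little in stomach: Bms1 (-0.17) was the 1 lower of 38 small-subunit factors, Nifk (0.22) the 1 higher of 36 large-subunit factors and C1d (0.45) the 1 higher of 13 exosome genes. No gene of the other polymerase I list (12) or the MYC list (10) passed there.

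As a share of all counts, the 42 members together took a median of 0.261% in control duodenum (0.222 to 0.361%), 0.328% at the low dose (0.232 to 0.398%) and 0.325% at the high dose (0.246 to 0.382%). The medians of both doses lay above that of the controls and the ranges overlapped. The ribosomal protein share in duodenum had medians of 2.93%, 3.21% and 4.16% over control, low and high dose, so that median was highest at the high dose, while the members' medians were nearly equal at both doses. In stomach the members' medians were 0.186%, 0.186% and 0.188%, while the ribosomal protein medians were 1.99%, 2.07% and 2.78%. In liver they were 0.10003%, 0.102% and 0.104% for the members. The members' sums weigh each gene by its counts, which in the controls of each tissue were largest for Ncl and Npm1.

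**Figure D3:**
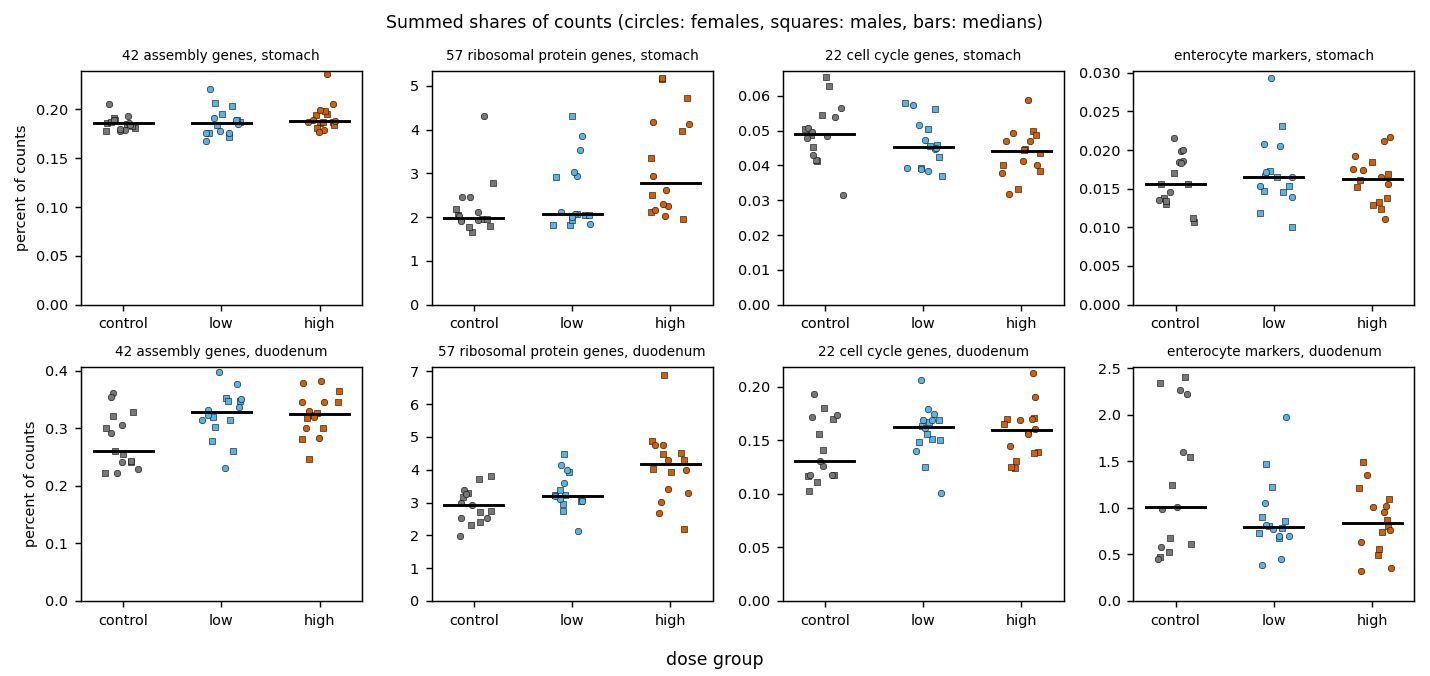
Share of each library's counts (percent) taken by the 42 members, 57 ribosomal protein genes, 22 cell cycle genes and the enterocyte markers (columns), by dose group in stomach and duodenum (rows); each point is a library (circles female, squares male) and the bar marks the median. In duodenum the members' medians are 0.261, 0.328 and 0.325%, and in stomach the ribosomal protein medians go from 1.99 to 2.78% while the members' medians are 0.186, 0.186 and 0.188%.

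At the high dose in duodenum, 8.76% of all genes were higher and 7.58% lower. Beside these, some cell cycle genes and 1 gene each of some cell type lists were called. Of 22 cell cycle genes 8 were higher at the high dose (median 0.16), led by Cdk1 (0.36), Pcna (0.31) and Ccnb1 (0.34), and the cell cycle share had medians of 0.131%, 0.163% and 0.159% over control, low and high dose. Enterocyte markers had a median change of -0.53 with Apob (-1.18) the 1 lower of 9 tested, and their share ran from 0.454 through 1.01 to 2.41% in controls and from 0.327 through 0.835 to 1.499% at the high dose. Muc2 (-0.58) was the 1 lower of 5 goblet cell genes (median 0.056), Cd3g (0.80) the 1 higher of 5 T cell genes (median 0.40) and Mzb1 (0.51) the 1 higher of 6 B and plasma cell genes (median 0.30). With the cell cycle share as a term in the fit 11 members and 2013 genes were called in duodenum, against 16 members and 2481 genes without it. With the enterocyte share 12 members and 2282 genes were called, and without the libraries rich in acinar markers 13 members, of which 12 were among the 16, and 2706 genes. In stomach, Top2a (-0.36) was the 1 lower of 22 cell cycle genes and Esrrg (-0.34) the 1 lower of 7 parietal cell genes. The part of these cell types in the results was otherwise not tested.

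Of the 42 members, 38 had a promoter entry in RefSeq (GRCr8, 250 bases before to 50 after the start), and Bop1, Rrs1, Gnl2 and Wdr43 did not. The letters CACGTG, the core of the E-box that MYC is known to bind and the same on both strands, were in 14 of the 38 windows (36.8%), against 6.65% of 27457 promoters of the same length. They were in 8.96 to 9.35% of the promoters of genes tested in the 3 tissues. The letters TTCCGG or CCGGAA on the other strand, which hold the core known for ETS factors and were chosen after the promoters had been read, were in 22 of 38 (57.9%), against 15.8% of all promoters and 26.1 to 27.9% of tested genes' promoters. Both strands were searched, and the letters of the 2 motifs cannot overlap. A match is not a bound site, and no binding was measured.

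Of these, 6 windows of 40 bases from RefSeq are printed to show where CACGTG, in capitals, stands before the start. They lie at chrX:157751450-157751489 (plus strand), chr16:6219785-6219824 (minus), chr1:9398596-9398635 (minus), chr14:83074279-83074318 (plus), chr7:25102954-25102993 (minus) and chr19:51702199-51702238 (plus).
Dkc1: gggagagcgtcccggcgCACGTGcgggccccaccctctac
Gnl3: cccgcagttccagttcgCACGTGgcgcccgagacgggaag
Ltv1: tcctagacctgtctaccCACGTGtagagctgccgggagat
Pes1: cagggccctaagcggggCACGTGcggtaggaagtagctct
Utp20: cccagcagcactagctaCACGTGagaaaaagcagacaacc
Utp4: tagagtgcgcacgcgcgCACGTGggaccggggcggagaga

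In duodenum at the high dose, 3 of the 14 genes with the letters CACGTG were called, and 12 of the 24 without them were, with medians of 0.087 and 0.22. In stomach 0 of the 14 and 3 of the 24 were called. For TTCCGG the duodenum counts were 9 of 22 with the letters and 6 of 16 without them. These are counts with no test.

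Without exposure, members were called between the sexes in liver. Female control livers had 10 of 42 members lower than male control livers and none higher (23.8%), against 12.3% of all genes lower and 10.5% higher (22.8% either way), so the share of members called was near that of all genes and the direction was not. The members' median was -0.22 against 0.0028 over all genes, and 33 of 42 values were negative, beside 50.3% of all genes positive. DESeq2 called 13 members lower, a count given here without its share over all genes.

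Rrs1, a large-subunit factor that brings the 5S RNA particle to the pre-ribosome, ran from 10.1 through a median of 12.4 to 15.1 CPM in females and from 16.2 through 19.9 to 42.2 in males. The sexes did not overlap, and the change was -0.89 ± 0.16 (edgeR adjusted p = 5.89e-05), with -0.75 within batch 1 and -1.10 within batch 2. How many of all liver genes separate the sexes in this way was not counted. Gar1 ran from 5.65 through 7.09 to 9.59 CPM in females and from 7.81 through 11.1 to 15.4 in males, with some overlap, a change of -0.47 ± 0.12 (edgeR adjusted p = 0.00347). Nop58, a C/D core protein, ran from 15.5 through 18.7 to 24.4 CPM in females and from 20.02 through 23.0 to 43.1 in males, a change of -0.48 ± 0.13 (edgeR adjusted p = 0.00668).

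The other called genes overlapped more, apart from Nop14, a small-subunit factor, which ran from 8.19 through 11.5 to 12.1 CPM in females and from 12.2 through 13.2 to 17.7 in males (-0.28 ± 0.10, edgeR adjusted p = 0.0459). Noc4l, its partner in the nucleolar small-subunit particle, was at -0.45 ± 0.14 (edgeR adjusted p = 0.0164), Wdr12 at -0.42 ± 0.14 (0.0318) and Brix1 at -0.46 ± 0.17 (0.0392). With 1 library left out, Wdr12 and Brix1 each lost the call in 8 fits and Noc4l in 1. Without male control replicate 7, Brix1 was at -0.29 (edgeR adjusted p = 0.205). Brix1 had equal medians, 6.92 CPM in females and 6.91 in males, and its male range reached 19.7 against 8.92 in females. Ltv1 (-0.32), Wdr74 (-0.33) and Nop10 (-0.43) also passed. By role the lower genes were 3 of 14 large-subunit, 3 of 12 small-subunit, 2 of 4 H/ACA, 1 of 3 C/D and 1 of 3 PeBoW genes, and none of the polymerase I or acidic protein genes.

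**Figure D4:**
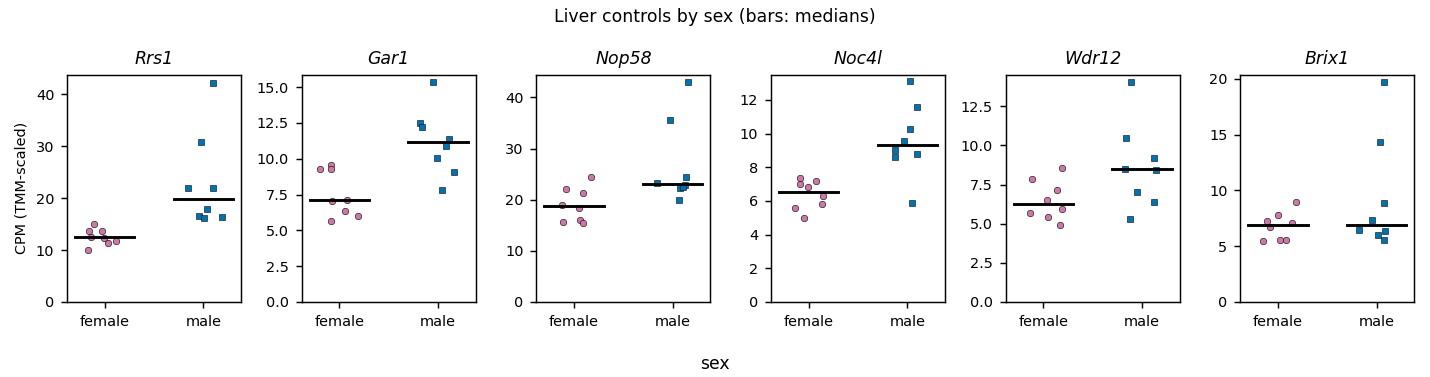
CPM of Rrs1, Gar1, Nop58, Noc4l, Wdr12 and Brix1, the 6 members with the smallest p, in female and male control livers, 8 libraries of each sex; each point is a library and the bar marks the median. Rrs1 lies between 10.1 and 15.1 CPM in females and between 16.2 and 42.2 in males, and the other genes overlap, with Brix1 reaching 19.7 CPM in males at nearly equal medians.

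Male control replicate 7 was the highest control liver for 23 of the 42 members. The count of 10 depended on the libraries and the batch: it was 1 within batch 1, 2 within batch 2 and 5 with no batch term. Over all liver genes 2995 were called, against 947, 1489 and 2297 in these settings. It was 3 without male control replicate 5, 5 without male control replicate 1 or 7, 6 without male control replicate 8, and 5 without female control replicate 3, 4 or 7. It was 6 without male low-dose replicate 3 or female high-dose replicate 1, which enter the fit only through the shared spread and batch term. How many of all genes were called with each library left out is not given here.

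Cell cycle genes differed in the same direction between these livers: 18 of 22 were lower in females (median -1.26), led by Rrm2 (-3.84), Ccna2 (-2.29) and Ccnb2 (-2.64). Their share of counts ran from 0.00591 through 0.00836 to 0.00960% in females and from 0.00903 through 0.0124 to 0.0264% in males. Of the other pathway lists, 7 of 38 small-subunit factors (Ddx52 -0.64, Imp4 -0.32, Wdr75 -0.34), 5 of 36 large-subunit factors (Nmd3 -0.62, Sbds -0.45, Nifk -0.63) and 4 of 13 exosome genes (Exosc9 -0.43, Exosc1 -0.50, Exosc7 -0.48) were lower, and no ribosomal protein gene was (0 of 57, median -0.14). Beside these counts, 12.3% of all liver genes were lower in females and 10.5% higher. Hepatocyte markers had median shares of 12.5% in females and 10.9% in males, and acinar markers took 0.0011 to 0.0320% in females and at most 0.000143% in males. The 42 members summed to medians of 0.0985% in females and 0.101% in males. This sum weighs each gene by its counts, most of all Ncl and Npm1, neither of which was called. The part of these markers in the sex difference was not tested.

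In the other tissues no member passed between the sexes without exposure. In stomach 0 members were called against 0.172% of genes, with 1 member at an unadjusted p under 0.05 and 0 by DESeq2, and the smallest p were those of Dkc1 (-0.21 ± 0.082, edgeR adjusted p = 0.449), Polr1b (-0.23 ± 0.12, 0.709) and Rrp15 (-0.19 ± 0.11, 0.770). In duodenum 0 members were called against 0.079% of genes, with 0 members at an unadjusted p under 0.05 and 0 by DESeq2, led by Noc2l (0.20 ± 0.10, edgeR adjusted p = 0.935), Bop1 (0.17 ± 0.093, 0.969) and Ncl, nucleolin (0.17 ± 0.12, 0.997). Whether the sex difference of liver itself differs from that of the other tissues was not tested.

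Among control libraries, duodenum had the highest levels of most of these genes. Over the libraries of the 3 tissues fitted together (16033 genes), the median was highest in duodenum for 30 members, in liver for 10 (Gnl2, Gnl3, Nob1, Noc4l, Nop10, Polr1a, Polr1b, Rrn3, Utp4 and Wdr74) and in stomach for 2 (Ltv1 and Nop16). Stomach against duodenum had 35 members lower and 2 higher (38.1% and 38.8% of all genes, 76.9% either way), with a members' median of -0.49 against -0.0053. Liver against duodenum had 25 lower and 6 higher (45.2% and 36.7%, 82% either way; -0.26 against -0.13). Liver against stomach had 23 higher and 7 lower (38.8% and 44%, 82.8% either way; 0.19 against -0.083). Each tissue enters 2 of these comparisons, so they are not independent.

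Nop56 and Gar1 had the largest fitted changes of the 42 in both comparisons with duodenum. Nop56 ran from 37.9 through 60.1 to 69.2 CPM in duodenum, from 21.8 through 25.7 to 28.3 in stomach and from 12.6 through 19.7 to 28.6 in liver. Neither stomach nor liver reached the lowest duodenum library, and stomach and liver overlapped. The change was -1.20 ± 0.081 in stomach and -1.53 ± 0.082 in liver against duodenum. Gar1 ran from 24.2 through 33.7 to 38.1 CPM in duodenum, from 12.2 through 15.2 to 16.7 in stomach and from 8.77 through 14.8 to 23.9 in liver (-1.13 ± 0.072 and -1.15 ± 0.073). Fbl ran from 56.8 through 74.9 to 126 CPM in duodenum, from 33.3 through 38.0 to 48.2 in stomach and from 27.5 through 35.2 to 48.6 in liver, with no overlap of duodenum with either tissue.

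The largest changes between stomach and duodenum also included Nhp2 (-1.12 ± 0.11) and Mrto4 (-1.11 ± 0.090), and liver against duodenum had Fbl (-1.12 ± 0.075) and Nolc1, the acidic chaperone of guide RNA particles (-1.11 ± 0.075). Stomach libraries lay wholly below duodenum for 9 members (11.9% of all genes did): Nop56, Nop58, Fbl, Nhp2, Gar1, Nolc1, Utp20, Wdr43 and Rrp15. Liver lay wholly below duodenum for 3, Nop56, Fbl and Gar1 (17.9% of all genes). The share of members with no overlap was thus not above that of all genes in liver.

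**Figure D5:**
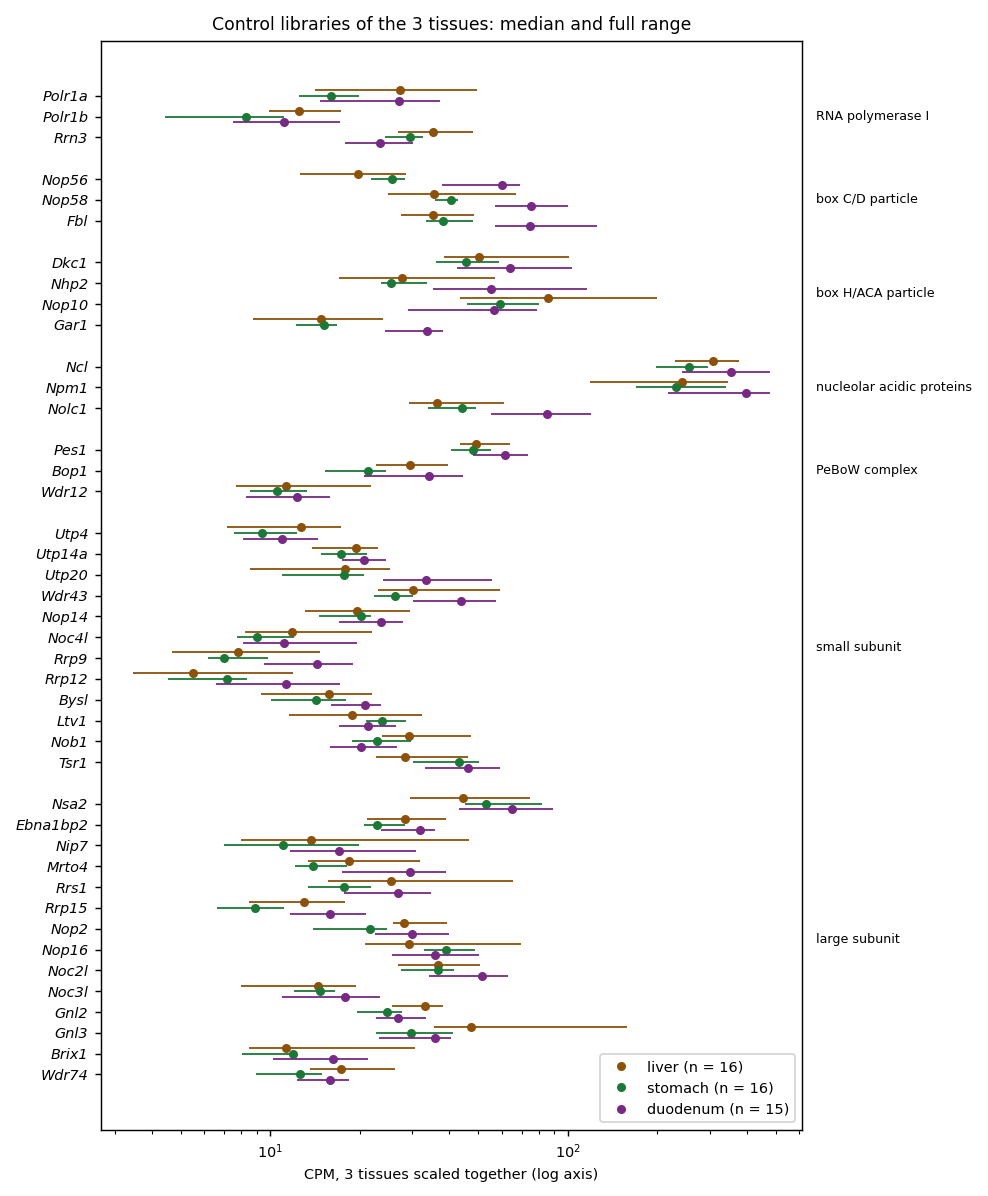
Median CPM of the 42 members in control liver, stomach and duodenum, scaled over the 3 tissues together, on a log axis; each row is a gene, with lines from the lowest to the highest library. Duodenum has the highest median for 30 genes, liver for 10 and stomach for 2.

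A few members went the other way. Nop10 was higher in liver (43.6 through 85.9 to 199 CPM) than in duodenum (29.0 through 56.6 to 78.9) by 0.76 ± 0.10 and than in stomach (45.8 through 59.2 to 80.1) by 0.70 ± 0.098. Gnl3 was higher in liver (35.4 through 47.3 to 159 CPM) than in stomach (22.6 through 29.7 to 41.3) by 0.90 ± 0.12 and than in duodenum by 0.62 ± 0.12. Its liver range was the widest of the 3 tissues and overlapped the others. Rrn3 (0.57 ± 0.059) and Nob1 (0.56 ± 0.081) were also higher in liver than duodenum, and Polr1a (0.71 ± 0.10) and Polr1b (0.66 ± 0.094) were higher in liver than stomach. Stomach exceeded duodenum in Rrn3 (0.25 ± 0.058) and Ltv1 (0.18 ± 0.075, edgeR adjusted p = 0.0313), and Nob1 (0.16) and Nop16 (0.15) did not pass (0.0665 and 0.179). Lower in liver than stomach were Tsr1 (-0.54 ± 0.077), Nop56 (-0.33 ± 0.081), Ltv1 (-0.32 ± 0.076) and Nop16 (-0.30 ± 0.10).

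By role, the C/D genes were all lower in both other tissues than in duodenum (3 of 3, medians -0.995 for stomach and -1.12 for liver), and RNA polymerase I genes were all higher in liver than stomach (3 of 3, median 0.66). The large-subunit genes had 9 of 14 higher in liver than stomach (median 0.38). With DESeq2's size factors in place of TMM the liver and stomach counts were 17 higher and 9 lower and the median over all genes was -0.17. With TMM they were 23 higher and 7 lower, so the counts in each direction in that pair moved with the scaling. Nsa2 followed the order of duodenum (median 65.0 CPM), stomach (52.9) and liver (44.4), with overlapping ranges.

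The transcript tables show how each member's counts are divided over annotated transcripts. Of the 42 members 22 had 1 transcript and 20 had several, up to 4. Npm1 divided nearly evenly in every tissue, with median shares of 49.3% in duodenum, 51.1% in liver and 49.4% in stomach for 1 transcript and 50.1%, 48.4% and 50.2% for the next. Tsr1 differed between tissues: the transcript with a median of 52.5% in duodenum and 55.1% in stomach had 30.0% in liver, where another had 58.6% against 28.7% and 29.0%. That second transcript was the largest in 32 of 46 liver libraries, 8 of 47 duodenum and 9 of 48 stomach libraries. Estimated transcript counts divide reads that fit several transcripts, and these shares were given no test.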

How the data were processed

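PolyA RNA-seq of rat liver, stomach and duodenum was deposited as gene and transcript tables of estimated (expected) counts; per the submitters' processing notes the authors used Trim Galore 0.6.10, STAR 2.7.11b, Salmon 1.10.3 and UMI-tools 1.1.5 with build mRatBN7.2. Expected counts were rounded and totals ran from 4947820 to 25503800 per library, which limits precision for low genes. Genes were filtered with filterByExpr, scaled by TMM and tested with edgeR 4.0.16 (quasi-likelihood, groups of sex and dose plus batch, all libraries of a tissue sharing the spread), with Benjamini-Hochberg adjustment over all genes and a threshold of 0.05. The script was checked on simulated data. DESeq2 1.42.0, limma 3.58.1, sva 3.50.0 and settings with covariates, batches or libraries left out were alternatives; those with enterocyte or cell cycle shares as terms, or without acinar-rich libraries, were chosen after seeing the data. Named per comparison were the 6 members with the smallest p in each direction where called, otherwise the 3 with the smallest p, Nsa2 at every dose, and the 4 with the largest change between tissues. At most 3 called genes were named per list. The members and lists were chosen with earlier results of these data known. Of 79 ribosomal protein symbols, 57 had a single tested row.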

Additional observations from a re-analysis of the deposited data

Results flagged for a closer look

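Single libraries far from their group were looked for in 36 sets of values, of which chance marks about 1 in 20. These sets were the summed share of the 42 members in each of the 18 groups of tissue, sex and dose, and the levels of single named genes in groups of male stomach and control liver. Only sets of the summed share held a marked library. In liver, male low-dose replicate 7, had 0.133% of its counts in these genes, where the other males of that dose had 0.0904 to 0.108%. In stomach, female low-dose replicate 7, had 0.221%, where the others had 0.168 to 0.191%. Both lie in low-dose groups, in which no member was called in either tissue.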

How the results depend on the processing

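Most values of single genes kept their direction and side of the threshold, but many were of genes not called in the main fit, which readily stay uncalled. The counts of called members at the high dose and in liver controls moved in several settings, as given below. Of the values of single genes, 1099 were unchanged in call and direction under other settings, 75 lost the call, 11 gained it and 12 changed sign. With 1 library left out, 4746 were unchanged, 66 lost the call, 17 gained it and 4 changed sign. No setting moved the counts between control tissues by more than 1.5 times.

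The 3 members called in stomach at the high dose became 0 with no batch term, with 3 surrogate variables, when each library's share of ribosomal protein counts was a term, and within batch 1 or batch 2 alone, as the 680 genes called in all became 4, 0, 3, 2 and 0. The 3 called in male stomach became 0 in the same settings, as the 1069 genes in all became 3, 0, 0, 7 and 0. The 16 of duodenum became 0 with that share as a term, with 3 surrogate variables and within batch 1, as the 2481 genes in all became 0 in each. The low-dose duodenum count of 0 became 1 with DESeq2 (18 genes in all) and 2 within batch 2 (245 genes), and the male duodenum count of 0 became 8 with DESeq2 (1010 genes) and 11 without the libraries rich in acinar transcripts (1532 genes). The 10 of liver controls, where 2995 genes were called in all, became 4 with no filter on low counts (2622 genes), 5 with no batch term (2297), 5 with only the groups compared (2410), 17 with the ribosomal protein share (4128), 1 within batch 1 (947) and 2 within batch 2 (1489). The cause of these shifts was not tested.

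With the replicate number as a block, the stomach males had 5 called (1566 genes in all) and the liver controls 6 (2975), and the duodenum high-dose count was 15 (2073). Whether the numbers pair the libraries was not tested. In liver, stomach and duodenum, 26 of 110, 35 of 120 and 35 of 115 same-number pairs had a correlation over 0.1. Of the libraries, 4 of 46, 14 of 48 and 6 of 47 correlated best with their own number. The mean correlation of same-number pairs was 0.040 in stomach, against -0.0059 for other numbers. It was -0.010 against 0.0021 in liver and 0.0017 against -0.00013 in duodenum.

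Leaving out 1 library at a time gave 0 (without male high-dose replicate 4) to 4 for stomach, 2 to 4 for stomach males, 9 (without male high-dose replicate 5 or female control replicate 1) to 20 for duodenum, 0 to 6 (without female low-dose replicate 7) for low-dose duodenum, 0 to 14 (without male high-dose replicate 6; 4 without male control replicate 7 and 5 without female low-dose replicate 7) for duodenum males, and 3 to 12 for liver controls. Between control tissues the ranges were 35 to 38 (stomach and duodenum), 30 to 34 (liver and duodenum) and 26 to 30 (liver and stomach). The counts over all genes in these fits are not given here.

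The values that changed sign were these, where a sex difference is the high-dose change in females minus that in males. Within batch 1, Nop2 between liver doses was 0.16, Rrs1 in liver males 0.028 and the liver sex difference of Gar1 -0.41. With the ribosomal protein share, stomach Nip7 was -0.034, Nsa2 between stomach doses -0.013, Nop10 in stomach males -0.043, Nsa2 in stomach females -0.0053, the liver sex difference of Nsa2 -0.11 and its duodenum one 0.014. With 3 surrogate variables Nop10 in stomach males was -0.035 and low-dose Nsa2 in duodenum -0.029. Without batch 3 the liver sex difference of Nsa2 was -0.045. Nsa2 in liver males was -0.12 without male high-dose replicate 6 (its highest leave-out value was 0.14), its liver sex difference -0.0028 and -0.022 without female high-dose replicates 3 and 4 (highest 0.26), and its duodenum sex difference 0.058 without male high-dose replicate 5 (lowest -0.17).

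Depth limits low genes, the batches were unevenly filled (batch 3 lacked some groups), and CPM cannot compare genes.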
